A study of Mus musculus with 6 samples.

Results

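The metalloproteinase genes of HC11 cells and the tissue inhibitors that act on their products were compared between cells cultured with and without BMP7. Members were taken by a rule on gene names, as every gene of the deposited counts named Mmp, Adam, Adamts, Adamtsl or Timp with a number. This gave 85 of 55809 genes. The gene families were chosen with earlier results of these data known. They comprised 23 MMP, 34 ADAM, 19 ADAMTS, 5 ADAMTSL and 4 TIMP genes. HC11 is an established line of mouse mammary epithelial cells, and the same line was used in both groups, so that the values describe a single cell line. The groups were HC11 cells cultured with BMP7 (3 libraries, named BMP7 replicates 1, 3 and 4 as in the counts) and HC11 cells cultured without it (Ctrl, replicates 1, 2 and 3). In the methods, cells were starved for 16 h before BMP7 at 50 ng per mL was added for either 30 min or 6 h. Which of these durations the sequenced RNA came from is not stated there. Nothing states that the libraries came from separate cultures, so p-values measure the spread between these libraries, which may be technical.

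MMPs, ADAMs and ADAMTS enzymes are zinc-dependent proteinases of the cell surface and the matrix. MMPs are made as inactive precursors and cleave collagens, other matrix proteins and growth factor carriers, ADAMs are membrane proteins of which several shed the extracellular parts of receptors and ligands, and ADAMTS enzymes are secreted and cut proteoglycans and procollagens. ADAMTSL proteins resemble ADAMTS enzymes but lack the catalytic domain, and TIMPs bind and block the active enzymes. In the mammary gland these enzymes are known for their part in duct branching and in the breakdown of the epithelium after weaning.

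Between 14607938 and 23748970 fragments per library were counted, and members took between 0.398% and 0.404% of them. The epithelial markers *Krt5*, *Krt14*, *Krt8*, *Krt18*, *Epcam* and *Cdh1* were measured in every library, with a level of 1203 FPKM (fragments per exon length and library size) for the basal keratin *Krt5* and 32.3 FPKM for the luminal keratin *Krt8* in Ctrl. With BMP7, *Krt14* was higher (log2 fold change 0.43) and *Krt18* (-0.67), *Epcam* (-0.42) and *Cdh1* (-0.27) were lower, all past the threshold. BMP7 replicate 1 stood apart from replicates 3 and 4 in the sums of macrophage and of adipocyte markers, though not in every gene of these lists. In CPM (counts per library size, with TMM factors), the sum of 12 macrophage genes was 69.9, 68.8 and 65.0 in Ctrl, and 67.0, 32.0 and 31.1 in BMP7 replicates 1, 3 and 4. That of 10 adipocyte genes was 77.7, 69.3 and 73.7 in Ctrl, and 64.6, 118 and 108 with BMP7, with 7 genes higher and 1 lower. The lower gene, *Pnpla2*, held most of the Ctrl sum, at 57.5, 57.3 and 61.8 in Ctrl and 42.9, 44.4 and 43.7 with BMP7. Among the 7 higher, the groups of *Adipoq*, *Car3*, *Pck1* and *Cfd* overlapped, with BMP7 replicate 1 in the Ctrl range. The sum of 5 endothelial genes did not split in this way, at 15.9, 13.3 and 15.0 in Ctrl and 24.0, 26.3 and 25.0 with BMP7. Nearly all of it was *Pecam1*, the only gene of this list tested, which was higher with BMP7. The mean of *Pecam1* was 14.4 CPM in Ctrl and 24.6 CPM with BMP7. *Cdh5*, *Kdr*, *Tek* and *Emcn* had at most 8 counts in any library, so the sum describes *Pecam1* and not the list. The sum of 8 fibroblast genes was between 115 and 126 in Ctrl and between 102 and 120 with BMP7, with *Col1a2*, *Col3a1* and *Dcn* higher and *Col1a1* lower. None of the genes on these lists was at 0 in every library, and their part in the members' values was not tested. Whether cells of these types were in the cultures was not tested. With bulk RNA, fewer cells of a type and less RNA per cell cannot be told apart.

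Of the 85 members, 71 had a count in any library, 38 had at least 10 counts in 3 libraries, and 37 were tested after edgeR's filter on low expression. The difference between these numbers was *Mmp10*, which had 11, 17 and 10 counts in Ctrl and 5, 9 and 5 with BMP7. A call needed both an adjusted p under 0.05 and a fold above 1.2. *Mmp11*, *Mmp28*, *Adam10*, *Adamts9*, *Adamts15*, *Adamtsl3*, *Timp1* and *Timp3* rose with BMP7, which is 8 members (21.6% of those tested, against 5.99% of all genes tested). *Mmp8*, *Mmp12*, *Mmp15*, *Adamts1*, *Adamts5* and *Adamts14* fell, which is 6 members (16.2%, against 5.38% of all genes tested). The groups did not overlap for 20 members (54.1%, against 29.8% of all genes tested), of which 10 were above and 10 below Ctrl. The median log2 fold change was -0.01 over the members tested and -0.00621 over all genes tested. The share of members called includes some that passed the filter only through the group in which they were high, such as *Adamts9* and *Mmp8*. The members were also chosen with earlier results of these data known, so these shares are a description only.

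**Figure D1:**
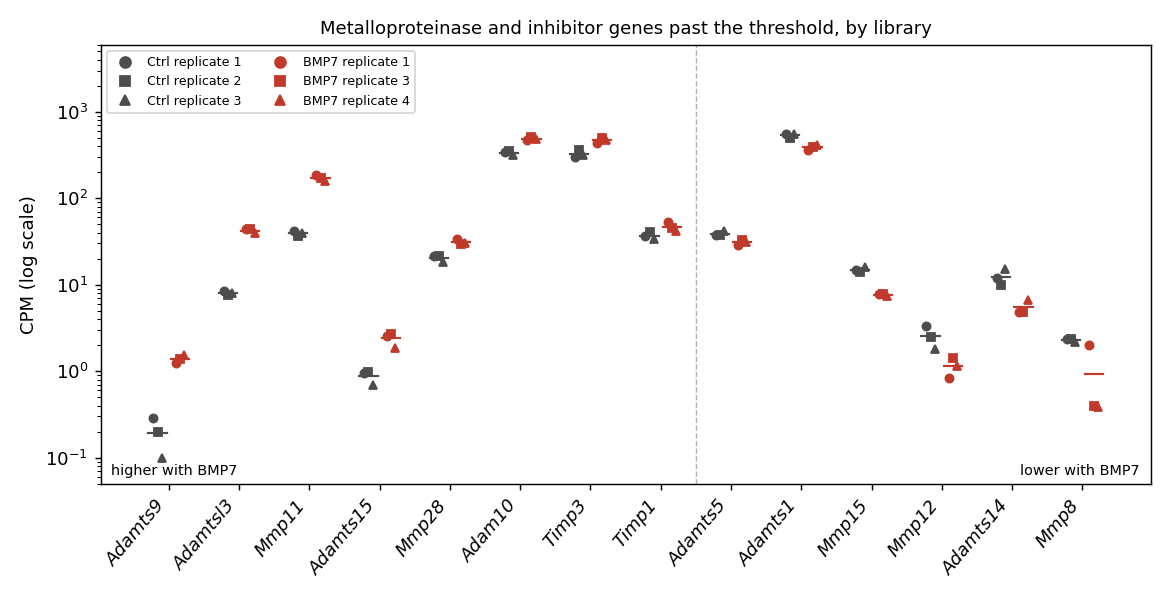
CPM (log scale) of the 14 members past the threshold in each Ctrl library (grey) and BMP7 library (red), with symbols for replicates and horizontal bars for group means. The 8 genes on the left were higher with BMP7 and the 6 on the right lower. *Mmp8* in BMP7 replicate 1, at 2.02 CPM, lies away from the other 2 BMP7 libraries.

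Levels per exon length spanned a wide range and were led by an inhibitor. In Ctrl the highest mean level was that of *Timp2*, at 481 FPKM, followed by *Adamts1* at 101, *Adam10* at 68.6, *Mmp14* at 44.1, *Timp1* at 41.6, *Timp3* at 39.9, *Adam9* at 25.0 and *Mmp11* at 14.1 FPKM. With BMP7, *Mmp11* stood at 61.7 FPKM, above *Mmp14* at 43.8 FPKM. The Ctrl ranges of *Mmp14*, *Timp1* and *Timp3* lie close together, so the order of these 3 is not read.

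**Figure D2:**
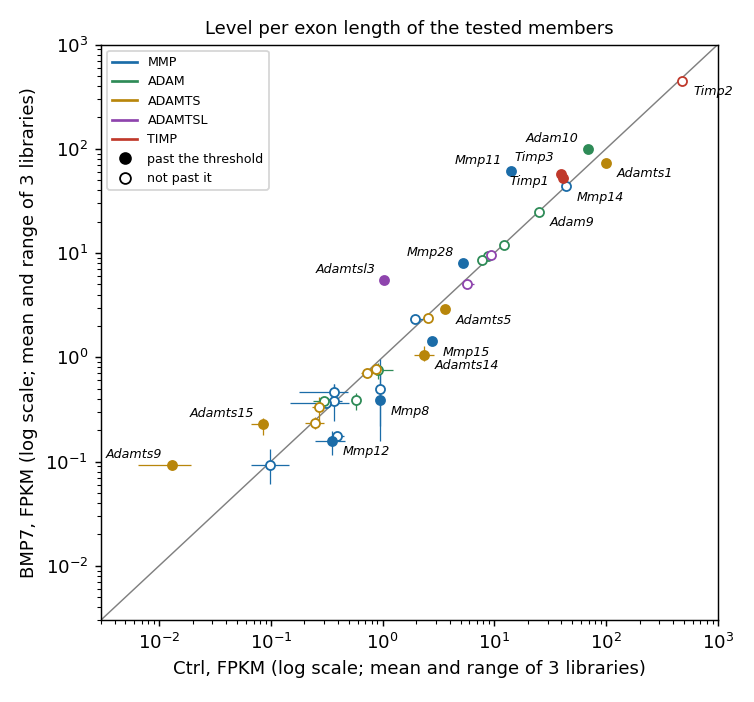
Mean level of each tested member in Ctrl (x axis) and with BMP7 (y axis), in FPKM on log scales, with lines over the range of the 3 libraries and a grey line at equality. Filled points passed the threshold. *Mmp11* and *Adamtsl3* lie farthest above equality among members over 1 FPKM, and *Timp2* is the highest in both groups.

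Summed by class, the MMP level was 72.6, 70.7 and 74.1 FPKM in Ctrl and 126, 121 and 113 FPKM with BMP7, a ratio of means of 1.66. *Mmp14* held 60.9% of this sum in Ctrl and stayed level, at 44.1 FPKM in Ctrl and 43.8 FPKM with BMP7. The mean of *Mmp11* went from 14.1 FPKM in Ctrl to 61.7 FPKM with BMP7. The ADAM sum was 125 ± 3.64 FPKM in Ctrl and 156 ± 5.27 with BMP7 (SD, n = 3), a ratio of 1.25. Within it, *Adam10* went from 68.6 to 99.5 FPKM. The ADAMTSL sum was 16.1 ± 1.01 and 20.2 ± 1.24 FPKM, also a ratio of 1.25. There, *Adamtsl3* went from 1.03 to 5.46 FPKM. The MMP, ADAM and ADAMTSL sums are thus not read as shifts of whole classes. The ADAMTS sum was lower with BMP7, at 112 ± 6.08 FPKM in Ctrl and 82.2 ± 4.90 with BMP7, and *Adamts1* held 90.3% of it in Ctrl. The BMP7 libraries lay outside the Ctrl range in these 4 classes, where an exact two-sided permutation test of 3 libraries against 3 gives p = 0.1, the smallest it can reach. The TIMP sum was 552, 560 and 576 FPKM in Ctrl and 564, 568 and 548 FPKM with BMP7, and the groups overlapped.

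*Mmp11* encodes stromelysin-3, an MMP known from the tissue around breast carcinomas and unusual among secreted MMPs in being activated inside the cell by furin. Its level was 41.7, 36.4 and 39.8 CPM in Ctrl and 184, 172 and 158 CPM with BMP7, so that the groups were far apart. The rise was 4.36-fold (log2 fold change 2.12, SE 0.07, adjusted p = 7.953e-12, by the quasi-likelihood test of edgeR, adjusted after Benjamini and Hochberg across the tested genes). The gene lies at chr10:75759056-75772330 (mm39, as the annotation of the counts is named), and 5.58% of its exon bases are shared with *Chchd10*. The ratio of *Mmp11* to *Mmp14* in FPKM was between 0.301 and 0.354 in Ctrl and between 1.35 and 1.52 with BMP7.

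To show the sequence beside the largest rises, the 250 bases before the RefSeq start site are printed here for *Adamts9*, *Adamtsl3* and *Mmp11*, the 3 members called with the largest absolute log2 fold change (RefSeq, GRCm38.p6, 5′ to 3′ on the strand of the gene). Capitals mark GGCGCC, a GC-rich element to which BMP Smads are known to bind. The windows are chr6:92943535-92943784 (minus strand, 71.2% GC), chr7:82335444-82335693 (plus strand, 80.0% GC) and chr10:75932503-75932752 (minus strand, 63.2% GC), and the median over all windows was 52.4% GC.
*Adamts9*: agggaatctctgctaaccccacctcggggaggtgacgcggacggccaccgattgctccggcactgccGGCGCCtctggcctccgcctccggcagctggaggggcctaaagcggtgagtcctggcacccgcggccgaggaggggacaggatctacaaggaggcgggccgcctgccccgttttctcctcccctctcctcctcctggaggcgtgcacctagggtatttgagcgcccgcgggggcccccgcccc
*Adamtsl3*: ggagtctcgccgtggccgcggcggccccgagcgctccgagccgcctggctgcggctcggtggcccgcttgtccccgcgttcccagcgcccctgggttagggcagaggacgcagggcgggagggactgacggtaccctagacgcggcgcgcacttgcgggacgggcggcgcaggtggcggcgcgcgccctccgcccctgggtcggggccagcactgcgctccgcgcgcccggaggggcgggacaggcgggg
*Mmp11*: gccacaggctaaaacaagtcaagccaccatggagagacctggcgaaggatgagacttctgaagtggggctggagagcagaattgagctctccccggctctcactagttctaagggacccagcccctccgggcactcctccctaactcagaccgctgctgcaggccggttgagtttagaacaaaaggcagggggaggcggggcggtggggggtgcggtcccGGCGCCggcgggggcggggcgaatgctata

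The *Adamts9* and *Mmp11* windows each hold GGCGCC, at positions -183 and -30 from the start, and the *Adamtsl3* window does not. A window was at hand for 54 members, among them 12 of the 14 members past the threshold. GGCGCC was found in 2 of 7 windows of members that rose (*Adamts9*, *Mmp11*), in 1 of 6 windows of members that fell (*Adamts14*) in 7 of 26 windows of the members tested (26.9%) and in 9.59% of all 32851 windows. The share among members that rose (28.6%) was thus near that of the members tested. The ETS motif AGGAAG was found in the windows of *Adam10*, *Timp1* and *Timp3* among those that rose, of *Mmp8* and *Mmp12* among those that fell, and in 29.5% of all windows. The AP-1 motif TGAGTCA was found in the window of *Mmp12*, in no window of the members that rose and in 4.46% of all windows. The Smad palindrome GTCTAGAC was found in 0.167% of all windows and in none of the members' windows. Both strands were searched for each motif, no motif contains another, and a match of letters is a description of the window only.

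Among the other secreted MMPs, *Mmp28* encodes epilysin, an MMP known from epithelia. Its level was 21.7, 21.4 and 18.4 CPM in Ctrl and 33.6, 29.4 and 30.2 CPM with BMP7, without overlap. It rose 1.51-fold (log2 fold change 0.59, SE 0.09, adjusted p = 0.0002584, edgeR), and 466 of its 3874 exon bases lie under another gene. The stromelysin *Mmp3* was low, at 0.674, 0.541 and 0.782 CPM in Ctrl and 0.627, 0.444 and 0.992 CPM with BMP7, and its groups overlapped. *Mmp19* and *Mmp23* also had overlapping groups, with log2 fold changes of 0.33 (95% interval -0.64 to 1.31) and 0.22 (-0.97 to 1.42), and *Mmp21* had 3 counts in 1 library.

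The membrane-type MMPs act at the cell surface, and *Mmp14*, which cleaves collagen and activates the precursor of MMP2, is the best known of them. *Mmp14* was at 253, 259 and 277 CPM in Ctrl and 259, 273 and 252 CPM with BMP7. Its log2 fold change was -0.01 (95% interval -0.18 to 0.16, adjusted p = 0.9515, edgeR), and it turned to 0.03 without Ctrl replicate 3 and to 0.02 without BMP7 replicate 4. *Mmp15*, a close relative of *Mmp14*, was at 14.6, 14.1 and 16.1 CPM in Ctrl and 7.88, 7.73 and 7.38 CPM with BMP7, and the 3 BMP7 libraries were nearly alike. It fell by 0.96 on the log2 scale (SE 0.11, adjusted p = 1.717e-05, edgeR). *Mmp17* was at 0.648 CPM on average in Ctrl and 0.613 with BMP7 with overlapping groups, and *Mmp16*, *Mmp24* and *Mmp25* had at most 4 counts in any library.

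The collagenases, gelatinases and macrophage elastase were low in these libraries, with Ctrl levels of *Mmp8*, *Mmp9*, *Mmp12* and *Mmp13* between 0.352 and 0.951 FPKM. The gelatinase *Mmp2* was higher, at 1.96 FPKM in Ctrl. *Mmp8*, a collagenase known from neutrophils, was at 2.36, 2.36 and 2.20 CPM in Ctrl and at 2.02, 0.400 and 0.386 CPM in BMP7 replicates 1, 3 and 4. All 3 BMP7 libraries were below Ctrl, replicate 1 only just. It fell by 1.42 on the log2 scale (SE 0.46, adjusted p = 0.04922, edgeR). The call was lost when any 1 of the 5 libraries other than BMP7 replicate 1 was left out. The log2 fold change was -1.39, -1.40 and -1.44 without Ctrl replicates 1, 2 and 3 (adjusted p = 0.1206, 0.1439 and 0.08683, edgeR), -1.01 and -1.07 without BMP7 replicates 3 and 4 (adjusted p = 0.2027 and 0.1497), and -2.53 without BMP7 replicate 1 (adjusted p = 0.0002502). For BMP7 replicate 1 alone against Ctrl it was -0.19. *Mmp8* passed the filter on low expression only through its Ctrl libraries, so its p-values are not read as support.

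*Mmp9*, a gelatinase, showed the same split among the BMP7 libraries, at 3.47, 3.44 and 3.08 CPM in Ctrl and 3.42, 1.07 and 0.771 CPM in BMP7 replicates 1, 3 and 4. Its groups overlapped and it did not pass the threshold (log2 fold change -1.01, SE 0.37, adjusted p = 0.08884, edgeR). The split of *Mmp8* and *Mmp9* between BMP7 replicate 1 and replicates 3 and 4 is that of the summed macrophage genes given above. Of these 12 genes, 9 were tested, 4 were lower with BMP7 (*Ptprc*, *Lyz2*, *Itgam*, *Cd14*) and 0 higher. In Ctrl, *Lyz2* and *Mpeg1* held much of the sum, at means of 26.2 and 12.6 CPM. In BMP7 replicates 1, 3 and 4, *Lyz2* was at 22.5, 6.76 and 6.94 CPM and *Mpeg1* at 13.2, 3.16 and 2.92 CPM. *Ptprc* and *Itgam* split likewise at lower levels, while *Cd14* split less, at 5.85, 4.36 and 5.01 CPM. *Cd68* lay the other way without passing the threshold, at most 11.6 CPM in Ctrl and at least 12.4 CPM with BMP7. The part of the macrophage genes in the values of *Mmp8* and *Mmp9* was not tested. *Mmp2*, the other gelatinase, was at 6.61 ± 1.00 CPM in Ctrl and 7.79 ± 0.677 with BMP7 (SD, n = 3), and its groups overlapped.

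*Mmp12* encodes macrophage elastase. It was at 3.32, 2.51 and 1.81 CPM in Ctrl and 0.836, 1.42 and 1.16 CPM with BMP7, and here BMP7 replicate 1 was the lowest of all libraries. It fell by 1.12 on the log2 scale (SE 0.31, adjusted p = 0.02107, edgeR). The call was lost without Ctrl replicate 1 (-0.89, adjusted p = 0.1362), Ctrl replicate 2 (-1.14, adjusted p = 0.06707) or BMP7 replicate 1 (-0.97, adjusted p = 0.05973, edgeR). *Mmp13*, a collagenase known from bone and cartilage, was at 1.204, 0.983 and 0.929 CPM in Ctrl and 0.488, 0.489 and 0.441 CPM with BMP7. All its BMP7 libraries lay below Ctrl and close together, and it did not pass the threshold (log2 fold change -1.13, SE 0.38, adjusted p = 0.06129, edgeR).

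**Figure D3:**
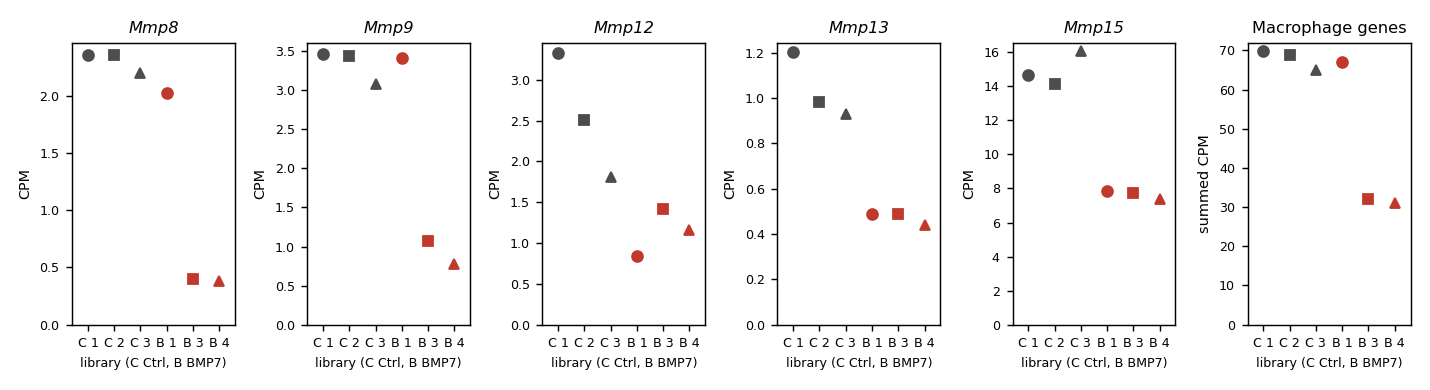
CPM by library (Ctrl grey, BMP7 red, axes from 0) of *Mmp8*, *Mmp9*, *Mmp12*, *Mmp13* and *Mmp15*, and the summed CPM of 12 macrophage genes. In *Mmp8*, *Mmp9* and the macrophage sum, BMP7 replicate 1 lies at or near the Ctrl libraries, while in *Mmp12*, *Mmp13* and *Mmp15* it lies with the other BMP7 libraries.

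*Mmp8*, *Mmp12* and *Mmp13* belong to a run of 10 MMP genes at chr9:7272514-7699586 (mm39), in the order *Mmp13*, *Mmp12*, *Mmp1b*, *Mmp3*, *Mmp1a*, *Mmp10*, *Mmp8*, *Mmp27*, *Mmp20* and *Mmp7*. Of these, 7 had a count, 4 were tested, 0 rose and 2 fell. *Mmp10*, not tested, had all its BMP7 libraries below Ctrl in CPM, at 0.530, 0.836 and 0.489 in Ctrl and 0.348, 0.400 and 0.275 with BMP7. *Mmp1a*, *Mmp1b*, *Mmp7*, *Mmp20* and *Mmp27* had at most 1 count in any library.

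ADAM10 cleaves Notch receptors, E-cadherin and several EGF family ligands, and ADAM17 releases TNF, TGF-alpha and amphiregulin. *Adam10* was at 340, 351 and 321 CPM in Ctrl and 474, 508 and 485 CPM with BMP7, so that the groups were clearly apart. It rose 1.45-fold (log2 fold change 0.54, SE 0.06, adjusted p = 1.186e-05, edgeR) and was the single ADAM gene past the threshold. *Adam17* was at 89.5, 86.5 and 88.1 CPM in Ctrl and 84.7, 87.7 and 86.9 CPM with BMP7, with overlapping groups and a log2 fold change of -0.03 (95% interval -0.19 to 0.14). The ratio of *Adam10* to *Adam17* in FPKM was between 5.30 and 5.91 in Ctrl and between 8.12 and 8.43 with BMP7. *Adam10* lies at chr9:70586279-70687511 and *Adam17* at chr12:21373510-21423633 (mm39).

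*Adam9*, which encodes a broadly expressed membrane sheddase, was at 101, 104 and 104 CPM in Ctrl and 98.8, 109 and 98.6 CPM with BMP7. Its log2 fold change was -0.01 (95% interval -0.18 to 0.16), and 0.01 both without BMP7 replicate 1 and without BMP7 replicate 4. The log2 fold changes of the other tested sheddase genes did not pass the threshold and were 0.10 for *Adam8* (95% interval -0.09 to 0.28), 0.14 for *Adam15* (-0.07 to 0.34) and -0.26 for *Adam12* (-0.79 to 0.27). *Adam11*, a member without catalytic activity known from the nervous system, was at 3.13, 3.54 and 3.23 CPM in Ctrl and 2.58, 2.31 and 1.76 CPM with BMP7, below Ctrl in all libraries but not past the threshold (log2 fold change -0.58, SE 0.22, adjusted p = 0.1005, edgeR). *Adam1a* had a log2 fold change of 0.33 (95% interval -0.54 to 1.21), and 22.1% of its exon bases lie under another gene. The other 26 ADAM genes were not tested, 8 of them had no count, and *Adam5*, at 23 counts in Ctrl replicate 1, was the highest of them in any library.

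The ADAMTS proteoglycanases cleave aggrecan and versican, large proteoglycans of the matrix. *Adamts1*, the most abundant ADAMTS gene, was at 549, 501 and 551 CPM in Ctrl and 362, 397 and 409 CPM with BMP7, without overlap. It fell by 0.46 on the log2 scale (SE 0.07, adjusted p = 0.0001464, edgeR). *Adamts5*, which encodes the main aggrecanase of mouse cartilage and lies next to *Adamts1* on chromosome 16 (chr16:85590715-85600001 and chr16:85653061-85698716, mm39), was at 37.2, 37.8 and 41.6 CPM in Ctrl and 29.1, 33.2 and 31.6 CPM with BMP7. It fell by 0.31 on the log2 scale (SE 0.08, adjusted p = 0.01473, edgeR), a fold of 1.24 that is close to the threshold of 1.2. The call was lost without Ctrl replicate 3 (-0.26, adjusted p = 0.08582) or BMP7 replicate 1 (-0.26, adjusted p = 0.051, edgeR). The ratio of *Adamts1* to *Adamts5* in FPKM was between 27.0 and 30.02 in Ctrl and between 24.3 and 26.4 with BMP7.

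*Adamts15* and *Adamts9* encode proteoglycanases as well, and they moved the other way from a much lower level. *Adamts15* was at 0.963, 0.983 and 0.685 CPM in Ctrl and 2.58, 2.71 and 1.87 CPM with BMP7, and rose 2.71-fold (log2 fold change 1.44, SE 0.30, adjusted p = 0.003881, edgeR). *Adamts9* had 6, 4 and 2 counts in Ctrl and 18, 31 and 28 counts with BMP7, or between 0.0978 and 0.289 CPM and between 1.25 and 1.54 CPM. Its groups were wide apart, and its log2 fold change of 2.80 (SE 0.45, 95% interval 1.56 to 4.04, adjusted p = 0.0003542, edgeR) was the largest of the members and the least precise of those that rose. The gene passed the filter on low expression only through its BMP7 libraries, so this p-value and rank are not read as support. With BMP7 the level of *Adamts9* was 0.0925 FPKM and that of *Adamts15* 0.230 FPKM, against 73.4 FPKM for *Adamts1*. *Adamts4*, a further aggrecanase, was at 3.51 ± 0.496 CPM in Ctrl and 3.40 ± 0.392 with BMP7 (SD, n = 3), with overlapping groups. *Adamts8* had no count and *Adamts20* a single count in 1 library.

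The procollagen N-proteinases remove the amino-terminal propeptides of fibrillar procollagens. *Adamts14* was at 11.9, 9.88 and 15.1 CPM in Ctrl and 4.88, 4.80 and 6.72 CPM with BMP7, and the groups did not overlap. It fell by 1.17 on the log2 scale (SE 0.17, adjusted p = 0.0001732, edgeR). The other 2 genes of this group were too low to be tested and lay on opposite sides. *Adamts3* had 8, 8 and 8 counts in Ctrl and 2, 4 and 2 with BMP7. *Adamts2* had 3, 1 and 3 counts in Ctrl and 7, 14 and 6 with BMP7.

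*Adamts7*, the ADAMTS gene with the third highest level in Ctrl after *Adamts1* and *Adamts5*, was at 15.8, 15.5 and 16.6 CPM in Ctrl and 14.6, 15.2 and 14.6 CPM with BMP7. It encodes an enzyme known to cleave cartilage oligomeric matrix protein, and its log2 fold change was -0.11 (95% interval -0.38 to 0.16, adjusted p = 0.5203, edgeR). *Adamts12*, which shares this substrate, and *Adamts6* and *Adamts10*, known for their part in fibrillin microfibrils, had overlapping groups and log2 fold changes of 0.31, -0.10 and -0.18. The remaining ADAMTS genes, *Adamts13*, *Adamts16*, *Adamts17*, *Adamts18* and *Adamts19*, had at most 4 counts in any library.

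**Figure D4:**
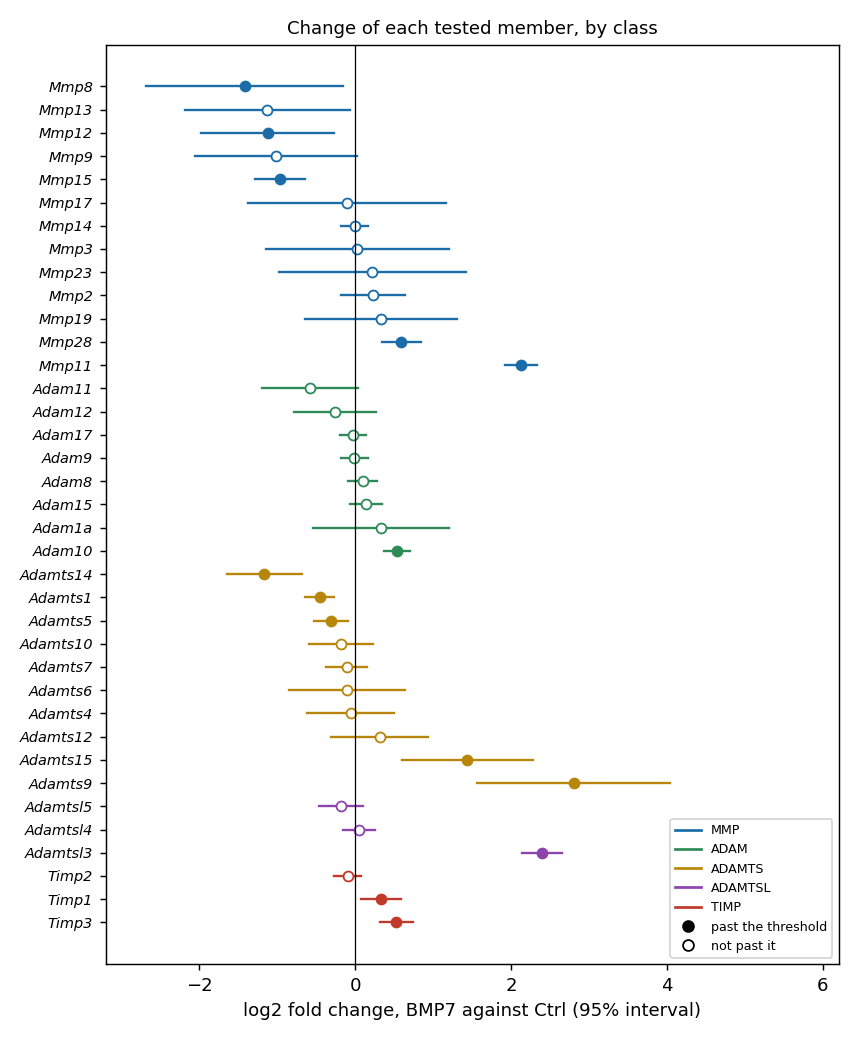
Log2 fold change of BMP7 against Ctrl (points) with 95% intervals (lines) of the 37 tested members, by class. Filled points passed the threshold. The intervals of *Mmp11*, *Adamtsl3* and *Adamts9* lie above 1.5, and those of *Mmp14*, *Adam9* and *Adam17* are narrow around 0.

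*Adamtsl3* encodes a secreted ADAMTS-like glycoprotein without a proteinase domain. Its level was 8.38, 7.52 and 8.12 CPM in Ctrl and 44.0, 43.7 and 39.2 CPM with BMP7, and the BMP7 libraries were close to each other. It rose 5.28-fold (log2 fold change 2.40, SE 0.09, adjusted p = 2.708e-11, edgeR), at chr7:81984902-82263658 (mm39). *Adamtsl4*, known for its binding to fibrillin microfibrils, was at 39.9, 37.2 and 40.3 CPM in Ctrl and 43.4, 40.4 and 38.1 CPM with BMP7, with a log2 fold change of 0.05 (95% interval -0.16 to 0.26). *Adamtsl5* was at 24.1, 26.2 and 31.3 CPM in Ctrl and 26.1, 22.7 and 23.3 CPM with BMP7, with a log2 fold change of -0.19 (95% interval -0.47 to 0.10). The groups of both genes overlapped, and the ratio of *Adamtsl3* to *Adamtsl4* in FPKM was between 0.109 and 0.114 in Ctrl and between 0.550 and 0.586 with BMP7. *Adamtsl1* and *Adamtsl2* were too low to be tested.

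Among the inhibitors, *Timp3* encodes the TIMP that stays bound to the matrix and that blocks ADAM17 and the aggrecanases as well as MMPs. It was at 297, 360 and 318 CPM in Ctrl and 438, 501 and 469 CPM with BMP7, without overlap. It rose 1.44-fold (log2 fold change 0.53, SE 0.07, adjusted p = 0.0001087, edgeR), and 21.3% of its exon bases lie under *Syn3*. *Timp1*, a soluble inhibitor of most MMPs and of ADAM10, was at 36.4, 40.5 and 34.0 CPM in Ctrl and 53.1, 45.8 and 41.4 CPM with BMP7, where the lowest BMP7 library was only just above the highest Ctrl library. It rose 1.26-fold (log2 fold change 0.33, SE 0.09, adjusted p = 0.02285, edgeR). The call was lost without Ctrl replicate 1 (0.32, adjusted p = 0.07416), Ctrl replicate 3 (0.28, adjusted p = 0.1036) or BMP7 replicate 1 (0.24, adjusted p = 0.0953, edgeR), and the value for BMP7 replicate 1 alone against Ctrl was 0.52.

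*Timp2*, which takes part with MMP14 in activating MMP2, was at 1848, 1832 and 1943 CPM in Ctrl and 1754, 1772 and 1730 CPM with BMP7. The BMP7 libraries lay below Ctrl, and the gene did not pass the threshold (log2 fold change -0.10, 95% interval -0.27 to 0.07, adjusted p = 0.3436, edgeR). The ratio of *Timp3* to *Timp2* in FPKM was between 0.0770 and 0.0941 in Ctrl and between 0.119 and 0.135 with BMP7. *Timp4* had 3, 1 and 0 counts in Ctrl and 0, 4 and 4 with BMP7, and was not tested.

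Genes whose products act on these enzymes were listed separately. Of 24 such regulators, 22 had a count, 19 were tested, 1 rose and 1 fell (5.26% each way, near the 5.99% and 5.38% of all genes tested), and their median log2 fold change was 0.04. *Pcsk6*, a proprotein convertase of the furin family that cleaves precursors of growth factors and proteinases, was at 21.8, 20.4 and 20.8 CPM in Ctrl and 32.6, 32.7 and 31.0 CPM with BMP7. It rose 1.53-fold (log2 fold change 0.61, SE 0.08, adjusted p = 4.497e-05, edgeR). *Tspan15*, one of the tetraspanins that bind ADAM10 and steer it to its substrates, was at 1.40, 1.67 and 1.22 CPM in Ctrl and 0.558, 0.444 and 0.716 CPM with BMP7. It fell by 1.33 on the log2 scale (SE 0.36, adjusted p = 0.02003, edgeR), and the call was lost without Ctrl replicate 1 (-1.34, adjusted p = 0.06189), Ctrl replicate 2 (-1.198, adjusted p = 0.09963) or BMP7 replicate 3 (-1.14, adjusted p = 0.1144, edgeR). *Tspan15* passed the filter on low expression only through its Ctrl libraries.

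The other tetraspanins of this kind did not pass the threshold, and *Tspan14*, the highest of them per exon length, had a log2 fold change of -0.08 (95% interval -0.24 to 0.09). *Furin*, which activates several MMP and ADAM precursors, was at 117 ± 2.39 CPM in Ctrl and 120 ± 1.79 with BMP7 (SD, n = 3). The inhibitor *Reck* had a log2 fold change of 0.09 (95% interval -0.27 to 0.45). The MMP inducer *Bsg* had one of 0.17 (-0.04 to 0.37), and the clearance receptor *Lrp1* had one of -0.14 (-0.32 to 0.05). *Rhbdf1* and *Rhbdf2*, which carry ADAM17 to the cell surface, had log2 fold changes of 0.05 (-0.11 to 0.20) and -0.16 (adjusted p = 0.07836, edgeR). All of these lay under the threshold.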

How the data were processed

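Poly(A) RNA of 6 HC11 libraries was sequenced. The authors used subjunc for alignment and featureCounts for counting, and the deposited counts are whole numbers without normalization. Per the file headers, counting was per exon and unstranded, and fragments mapping to several places or genes were left out, which lowers genes that share exons. The authors also deposited exon lengths, used here for FPKM. The methods name mm10 and the header of the counts mm39, and coordinates of genes are those of the counts.

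Counts were analysed with edgeR 4.0.16 in R 4.3.3 (expression filter, TMM, quasi-likelihood test of BMP7 against Ctrl, Benjamini-Hochberg adjustment over 15733 genes). The common biological coefficient of variation was 0.0696. Standard errors are the log2 fold change over the square root of F, and 95% intervals use the 4 residual degrees of freedom. The p-values come from the quasi-likelihood test, which sets its own degrees of freedom, so an interval and a p-value can differ. Every pair of replicates differed by more than sampling noise. The test was tried on simulated data. Named genes are all members and regulators past the threshold, all TIMPs and the 3 members per class with the highest Ctrl FPKM, and others were chosen with their values in view. The members and lists were chosen with earlier results of these data known. Alternatives were DESeq2 1.42.0, other scalings, filters and thresholds, and leaving out each library. Exon overlap was computed from the annotation of the counts. Copies were searched with BLAST 2.17.0 in GENCODE transcripts on GRCm38, at 95% identity over 100 bases. Of the 37 members tested, 15 had a match in another gene. Promoters came from RefSeq (GRCm38.p6).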

Additional observations from a re-analysis of the deposited data

How the results depend on the processing

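The number of members higher with BMP7 was 8 and lay between 7 and 8 in every alternative. The number lower was 6, and 10 with no filter on low counts, where *Mmp9*, *Adam3*, *Adam5* and *Adam32* were added, and 3 with glmTreat against a fold of 1.2. Without one library at a time it lay between 4 and 7. Among regulators the number lower was 1, and 2 with no filter (*Tspan17* added), 0 with glmTreat and between 0 and 2 without one library at a time. With at least 10 counts in every library it was 0 because *Tspan15* was not tested. The number of regulators higher was 1 in every alternative. DESeq2 called 14 of the 14 members. *Mmp8* also lost its call with DESeq2's size factors in edgeR (-1.42, adjusted p = 0.05177). The log2 fold change of *Mmp14* lay between -0.040 and 0.030 without one library at a time and turned to 0.030 without Ctrl replicate 3 and to 0.017 without BMP7 replicate 4, and that of *Adam9* lay between -0.058 and 0.014 and turned to 0.011 without BMP7 replicate 1 and to 0.014 without BMP7 replicate 4. *Mmp11*, *Mmp28*, *Mmp15*, *Adam10*, *Adamts1*, *Adamts14*, *Adamts15*, *Adamts9*, *Adamtsl3*, *Timp3* and *Pcsk6* kept their calls in every alternative that tested them. With at least 10 counts in every library *Adamts9* was not tested, and its kept call is not read as support. The causes were not tested. No paired analysis was possible because the BMP7 columns are numbered 1, 3 and 4 while the labels number the libraries from 1 to 3. Members with a few counts per library, such as *Adamts9*, are limited by counting error.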

Other observations

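Several ADAM genes known from testis and sperm had counts in Ctrl replicates 1 and 2 and almost none elsewhere, a pattern noticed after the values were seen. *Adam5* had 23 and 19 counts in Ctrl replicates 1 and 2, and 0 in the other 4 libraries. *Adam3* had 17, 9 and 1 counts in Ctrl and 0, 0 and 1 with BMP7, and *Adam32* had 11, 13 and 2 counts in Ctrl and 3, 0 and 0 with BMP7. *Adam2* had 5, 4 and 0 counts in Ctrl and 0 in each BMP7 library. Of a list of 20 further germ cell genes written after this was seen, 5 were tested, with 1 lower and 0 higher, and the 15 too low to be tested summed to 104, 52 and 10 counts in Ctrl and 7, 5 and 7 counts with BMP7. *Ldhc* alone had 26, 32 and 0 counts in Ctrl, and so held much of the sum of Ctrl replicate 2. *Spata16* (6, 5 and 1 in Ctrl) and *Ddx4* (5, 7 and 0) also had counts in Ctrl replicates 1 and 2. *Prm1*, *Prm2* and *Odf1* had 14, 13 and 8 counts in Ctrl replicate 1 and 0 in Ctrl replicates 2 and 3. In the ADAM counts and the sum, Ctrl replicate 3 thus lay with the BMP7 libraries and not with the other Ctrl libraries. In *Prm1*, *Prm2* and *Odf1*, Ctrl replicate 2 lay with the BMP7 libraries as well.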
